A study of Homo sapiens with 6 samples.

Results

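The genes described here are those of the cilium and the centrosome that carry the symbol stems CEP, IFT or BBS followed by a number, with the transcription factors FOXJ1, RFX1, RFX2, RFX3, RFX5 and RFX7. They were chosen by name from the platform annotation, which gave 110 of the 47322 probes on the array, for 71 genes: 54 probes of 38 CEP genes, 28 of 19 IFT genes, 14 of 8 BBS genes and 14 of the 6 factors. The set was proposed with the mimic against scramble contrast of these arrays already known. Its fold changes and calls in that contrast are therefore given as a description and are not independent evidence.

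A primary cilium is a microtubule-based antenna that grows from the older centriole of the centrosome when a cell leaves the cell cycle. CEP proteins build and anchor the centrioles and the base of the cilium, IFT proteins form the trains that kinesin and dynein carry along it, and BBS proteins form the BBSome, the coat that moves membrane proteins into and out of it. RFX factors bind the X-box motif in the promoters of ciliary genes, and FOXJ1 drives the genes of motile cilia.

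The cells were T47D, an established line from a human luminal breast tumour, positive for oestrogen receptor. One group received a miR-489 mimic, a synthetic double strand that acts like that microRNA, the other a scramble control siRNA, and both were harvested at 72 h. Each group had 3 samples, numbered 1 to 3, each on its own single-colour Illumina BeadChip array. Nothing in the labels says that the 3 came from separate cultures, so errors and calls rest on a spread that may be only technical. The labels name neither the arm nor the sequence of the mimic. RefSeq (GRCh38.p14) lists 1 mature product of MIR489, on chr7:93483947-93483968 of the minus strand, and it is shown because its bases 2 to 8, in capitals, are the seed that pairs with target RNAs.
hsa-miR-489-3p: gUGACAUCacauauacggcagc

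Per array, 16452 to 17346 probes were detected (detection p below 0.01), at a mean intensity of 526.2 to 619.4. Within groups r between arrays was 0.982 to 0.993, and between groups 0.945 to 0.958. All 9 luminal markers checked, among them ESR1, GATA3 and KRT18, were detected on all 6 arrays. With the mimic 3 of them were called lower (ESR1, FOXA1 and KRT19) and 2 higher, and their summed linear signal was 62401 to 63984 on the scramble arrays and 52971 to 55221 on the mimic arrays. Of the other cell types looked for, 0 of 5 endothelial and 1 of 7 fibroblast markers had a kept probe. Of 8 markers of motile ciliated epithelium 5 had one. RSPH1, DNAI1 and CIMAP3 were called higher with the mimic, FOXJ1 lower, and CAPS was not called. FOXJ1 was detected on scramble arrays alone and DNAI1 on mimic arrays alone. The 2 measured immune markers, CD14 and CD68, were called lower with the mimic (summed signal 687 to 811 and 433 to 447), while PTPRC, CD3E and LYZ were not detected. The part of the luminal and immune shifts in the results below was not tested.

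A probe was kept if it was detected on at least 3 of the 6 arrays, and 73 of the 110 probes (66.4%) passed, for 57 of the 71 genes. Of these, 60 were detected on all 6 arrays. Of those not kept, 30 were detected on 0 arrays and 7 on some. Genes without a kept probe include RFX2, BBS5, CEP170, CEP97 and IFT22, and the pseudogene names CEP170P1, CEP192P1 and IFT122P3. Values below are log2 intensities after background correction and quantile normalization, and differences are mimic minus scramble with the standard error (SE) of the limma fit over all 17104 kept probes (n = 3 per group). A probe is called at an adjusted p below 0.05 in that fit. RNA was pooled from all cells of a culture, so fewer cells expressing a gene and less RNA per cell cannot be told apart.

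Across the kept probes, 16 were called higher with the mimic, 6 lower and 51 were not called. That is 30.1% called, against 33.9% of all 17104 kept probes (17.5% higher and 16.3% lower), so the share called is near that of the array as a whole, and nothing is read from it. Called and at least 2-fold were 7 probes, against 9.46% of all kept probes. In genes, 14 had a probe called higher, 5 had 1 called lower, 0 had both and 38 had none. Without mimic array 3 the number of member probes called higher was 10, and without scramble array 2 or 3 the number called lower was 3. The arrays of the groups did not overlap for 33 of the 73 probes, against 48.8% of all kept probes. Median scaling in place of quantile normalization gave 23 higher and 6 lower among these probes and 3676 higher and 2210 lower over the array, where quantile normalization gave 3001 and 2796.

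By stem, 9 of 34 kept CEP probes rose, 2 fell and 23 were not called, with a median log2 fold change of 0.22. Of 21 IFT probes 2 rose, 2 fell and 17 were not called (median 0.27), and of 12 BBS probes 5 rose and 7 were not called (median 0.29). The 6 kept factor probes had 0 that rose, 2 that fell and 4 not called (median -0.28). The sign of that median depends on which probes are kept: it was 0.23 over probes detected on all 6 arrays, 0.02 with a detection p below 0.05, and 0.07 and 0.18 without scramble array 2 or 3. Both falls, FOXJ1 and RFX3, passed only through the scramble arrays, and 0 factor probes were called lower without any 1 of those arrays. Over all kept probes the median was 0.02. FOXJ1, RFX3 and IFT70A were detected on all 3 scramble arrays and on 0 mimic arrays, so they could pass the filter only by being high with the scramble, and these 3 of the 6 falls follow in part from that filter. They also leave the filter when a scramble array is left out. Such a pattern was found in 223 of all 47322 probes (0.471%), and the opposite one in 0 members and 186 probes (0.393%).

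**Figure D1:**
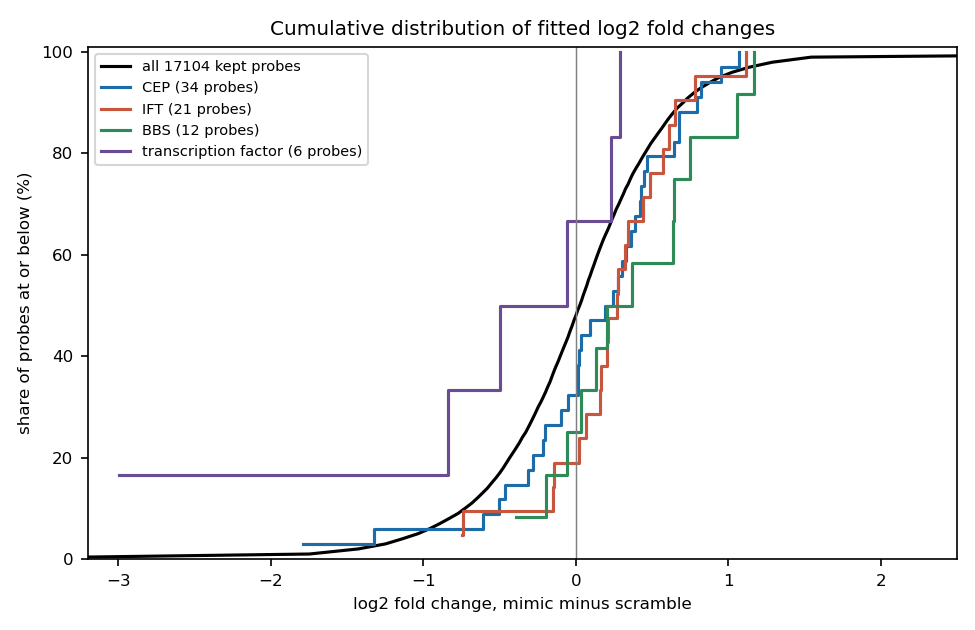
Share of probes (%) at or below each log2 fold change, mimic minus scramble, for all 17104 kept probes and for the 34 CEP, 21 IFT, 12 BBS and 6 factor probes. The curves of the 3 stems lie to the right of that of all probes over most of their range, with medians from 0.22 to 0.29 against 0.02, and the factor curve lies to the left down to -3.0 for FOXJ1. That place rests on FOXJ1 and RFX3, kept through the scramble arrays alone, and the factor median is 0.23 over probes detected on all 6 arrays.

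FOXJ1, the forkhead factor that turns on genes of motile cilia, was measured by 1 probe. Its log2 intensity was 7.31, 8.02 and 7.23 on the scramble arrays and 4.37, 4.46 and 4.72 on the mimic arrays. Every scramble array was well above every mimic array, and no mimic array detected it. The fitted difference was -3.0 ± 0.22, and as a bound FOXJ1 fell at least 4.43-fold. In the values normalized here, that bound sets the scramble mean against the lowest signal detected on each mimic array. The authors' deposited processed values, on a more compressed scale, gave a log2 difference of -0.81, smaller than that bound.

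RFX3, an X-box factor needed for nodal cilia in the mouse, had 6 probes, of which 1 was kept and the other 5 were detected on no more than 1 array. The kept probe read 5.63, 6.0 and 5.80 on the scramble arrays and 4.86, 5.32 and 4.75 on the mimic arrays. The groups did not overlap, no mimic array detected it, and RFX3 fell at least 1.36-fold (fitted -0.84 ± 0.18). In the authors' processed values the difference was -0.15, a smaller fall than the bound of 1.36-fold, and was not called. RFX2, an X-box factor of ciliated cells, was detected on 1 of 6 arrays with 1 probe and on 0 with the other, so no level is given.

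The remaining RFX factors were detected with both treatments. RFX1, a broadly expressed X-box factor, read 8.14, 7.96 and 8.24 on the scramble arrays and 8.39, 8.27 and 8.37 on the mimic arrays. Each mimic array was above each scramble array, but the difference of 0.23 ± 0.13 was not called. RFX7, a factor that acts downstream of p53, read 9.13, 9.44 and 9.31 on the scramble arrays and 9.35, 9.89 and 9.50 on the mimic arrays. Its groups overlapped (0.29 ± 0.17, not called), and its second probe was detected on 0 arrays.

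RFX5, which binds promoters of MHC class II genes together with RFXANK and RFXAP, had 2 kept probes. The probe ILMN_1741200 read 11.06, 11.49 and 11.68 on the scramble arrays and 11.24, 11.61 and 11.21 on the mimic arrays. The arrays overlapped, with a difference of -0.06 ± 0.19 that was not called. ILMN_2363843 was detected on 1 of 3 mimic arrays and was at -0.50 ± 0.23, also not called. It was called without mimic array 2 (-0.75) and with array weights. Of the RFX5 partners, RFXANK (-0.46 ± 0.17) and RFXAP (-0.36 ± 0.13) were not called. RFXANK was called without scramble array 1 (-0.63), without background correction, and with an offset of 50, a replicate block, trend and robust fitting or array weights. RFXAP was called with cyclic loess, detection on all 6 arrays or array weights. CIITA, the class II coactivator, and RFX6 were detected on no array. The plot of factor probes by array shows these values.

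**Figure D2:**
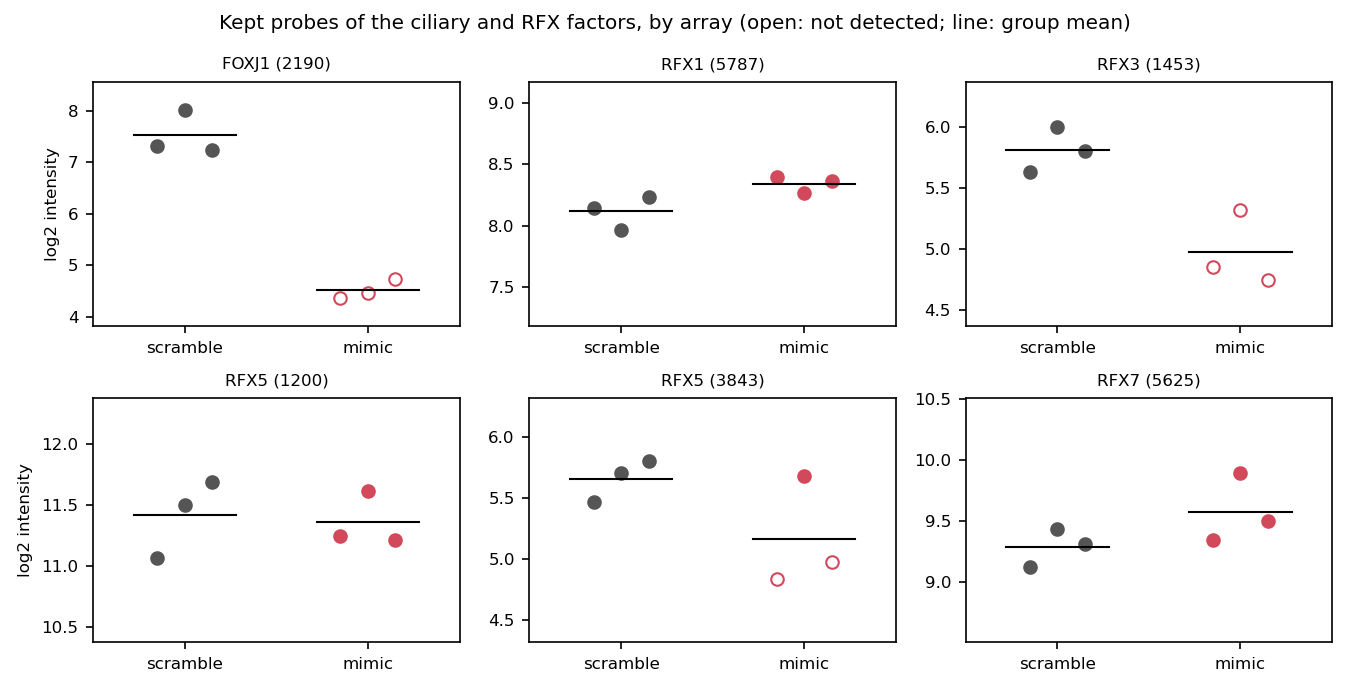
Log2 intensity (y axis) of the 6 kept probes of FOXJ1 and the RFX genes on the 3 scramble and 3 mimic arrays, with each panel on its own scale, open points not detected, lines the group means and the last 4 digits of the probe identifier in the title. FOXJ1 and RFX3 are open on all mimic arrays and lie below the scramble arrays, while RFX1, RFX7 and the RFX5 probe ILMN_1741200 are detected on all 6.

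Since RFX3 was among the falls, the promoters of the set were searched for its motif. RefSeq promoter windows (GRCh38.p14, 250 bases before to 50 after each gene's start) were matched by symbol for 60 of the 71 genes, with 75 windows. The X-box, searched by its consensus on both strands, was found for 8 of the 60 genes (13.3%), against 1.98% of 15034 genes on the array with a window. The 8 were CEP41, CEP57, CEP112, CEP135, IFT57, IFT70A, IFT70B and IFT122, so 4 were IFT genes and 0 of 7 BBS genes held it. The short motif GTTGCC, which can form 1 arm of an X-box, was found on either strand for 25 of 60 (41.7%) against 16.3%. Both motifs were held by 7 genes, but 8 of the 9 X-box matches contain GTTGCC on either strand. The 2 searches therefore overlap, and holding both is largely set by the X-box itself. The forkhead motif TGTTTAC was found for 3 (5.0%) against 3.71%.

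The X-box matches are shown for a gene that rose, for a gene that fell and its paralog, and for 2 others that were measured and not called. Capitals mark the match, and each sequence reads from 5′ to 3′ on the strand of the gene.
CEP135, chr4:55948881-55948908, plus strand: cgctcccGTTACCGGGGCAACcgcggcg
IFT70A, chr2:177618720-177618747, minus strand: ttgccctGTTGCCGTGGTAACcgcacgc
IFT70B, chr2:177552782-177552809, minus strand: ttgctctGTTGCCATAGTAACcgcaccc
IFT122, chr3:129440205-129440233, plus strand: catgtacGTTGCCAGGGGTAACgcaggta
CEP41, chr7:130441155-130441183, minus strand: gtcccgcGTTGCCCTTGGCAACcattgag
The matches of IFT70A, IFT70B and IFT122 lie at or within a few bases of the annotated start. Of the genes with an X-box, CEP135 rose, IFT70A fell, 5 were measured and not called and CEP112 had no kept probe. The GTTGCC motif was held by 5 of 13 members called higher that had a window (38.5%), by 1 of 4 called lower (25.0%) and by 14 of 34 kept and not called (41.2%). A match is a run of letters in this window and does not show that a factor binds there.

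Of 13 kept probes of CEP genes of centriole assembly, 4 were called higher, 0 lower and 9 were not called. That is 30.8% called, near the 33.9% of all kept probes, and nothing is read from it. In the fit 11 of the 13 were above 0 and 2 below, down to -0.28, where 8887 of all 17104 kept probes were above 0. CEP63, which helps to place new centrioles on the parent centriole, read 8.5, 8.34 and 8.52 on the scramble arrays and 9.67, 9.36 and 9.54 on the mimic arrays with the probe ILMN_1787808, and rose by 1.07 ± 0.14. All mimic arrays lay above all scramble arrays, while its 3 other probes were detected on 0 arrays. CEP120, which lengthens centrioles, read 6.06, 6.48 and 6.18 on the scramble arrays and 7.03, 7.01 and 7.16 on the mimic arrays and rose by 0.82 ± 0.15. The groups did not overlap.

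CEP135, a protein of the cartwheel on which a centriole forms, rose by 0.42 ± 0.13, and CEP70, a centrosomal microtubule organiser, by 0.47 ± 0.15. Both groups of arrays were apart for each gene, but the calls depend on single arrays. That of CEP135 was lost without scramble array 2 (0.36) or 3 (0.43) or mimic array 1 (0.41) or 3 (0.41). That of CEP70 was lost without scramble array 1 (0.39) or 2 (0.45) or mimic array 1 (0.53), 2 (0.49) or 3 (0.38), and with cyclic loess normalization. CEP152, the partner of CEP63, had 2 probes that were not called (0.36 ± 0.19 and 0.25 ± 0.14). CEP78, a centriole protein, had 1 probe at 0.43 ± 0.15, called without mimic array 2 (0.54), and 1 at 0.03 ± 0.16. The former was also called with an offset of 50, median scaling, detection on all 6 arrays, a replicate block or array weights.

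Among genes of the appendages that anchor the older centriole to the membrane, CEP89 and CEP164, both of the distal set, rose. CEP89 read 6.36, 6.05 and 6.19 on the scramble arrays and 7.07, 6.89 and 7.01 on the mimic arrays and rose by 0.79 ± 0.13, with no overlap. CEP164, which is needed for membrane docking, rose by 0.44 ± 0.14. Its call was lost without scramble array 2 (0.35) or 3 (0.47) or mimic array 1 (0.38) or 3 (0.45), and with cyclic loess. CEP128, of the subdistal appendages, rose by 0.65 ± 0.16, a call lost without scramble array 2 (0.59) or 3 (0.60) or mimic array 1 (0.63) or 3 (0.56) and in the authors' processed values (0.19).

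CEP19 had the lowest fold changes among CEP probes, and its probes disagreed. It acts at the mother centriole early in cilium assembly, where it brings in IFT proteins. The probe ILMN_1665217 read 7.35, 7.25 and 7.19 on the scramble arrays and 5.80, 5.11 and 5.50 on the mimic arrays. A second one, ILMN_1873107, read 6.72, 6.61 and 6.6 on the scramble arrays and 5.43, 5.48 and 5.04 on the mimic arrays. Both fell without overlap, by -1.79 ± 0.18 and -1.33 ± 0.15 in fitted log2 difference, and were detected on 2 and 1 of 3 mimic arrays. The probe ILMN_2288483 read 12.75, 12.69 and 12.69 on the scramble arrays and 12.81, 12.77 and 12.27 on the mimic arrays. There the groups overlapped, and the difference of -0.10 ± 0.17 was not called and changed sign without mimic array 3 (0.08). Which transcripts each probe reads was not tested. In the authors' processed values the falling probes were at -0.51 and -0.31, on a more compressed scale.

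**Figure D3:**
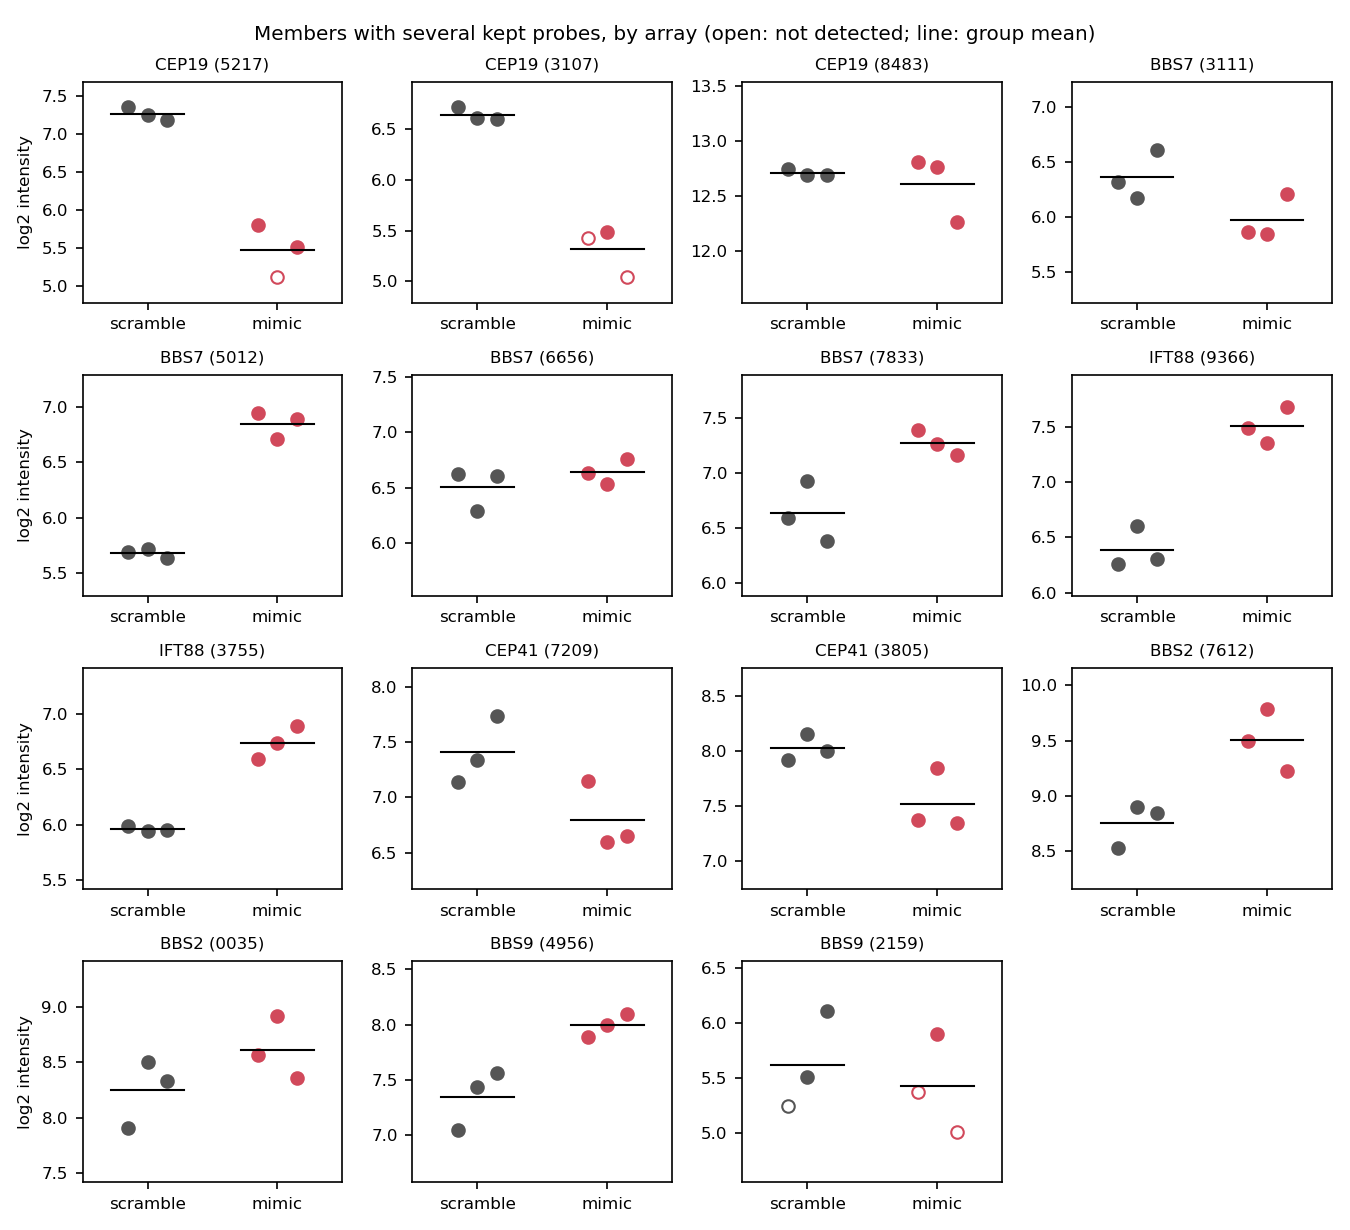
Log2 intensity (y axis, own scale per panel) on the 3 scramble and 3 mimic arrays for the kept probes of CEP19, BBS7, IFT88, CEP41, BBS2 and BBS9, with open points not detected, lines the group means and the last 4 digits of the probe identifier in the title. Both IFT88 probes are higher with the mimic, whereas 2 of 3 CEP19 probes are lower and 2 of 4 BBS7 probes higher without overlap.

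At the base of the cilium, CEP290 rose. It encodes a protein that links the microtubules to the membrane in the transition zone. It read 5.71, 6.18 and 6.25 on the scramble arrays and 7.11, 6.76 and 7.13 on the mimic arrays, and the difference was 0.95 ± 0.18, with the groups apart. CEP162, which sits on the axoneme and promotes assembly of the transition zone, rose by 0.68 ± 0.16, a call lost without mimic array 3 (0.64). CEP41, needed for glutamylation of ciliary tubulin, had 2 probes with lower fitted values that were not called (-0.61 ± 0.21 and -0.50 ± 0.17). The former was called without scramble array 1 (-0.74) or mimic array 1 (-0.78), and the latter, whose groups did not overlap, without mimic array 2 (-0.66). Both were called lower with cyclic loess, an offset of 50, detection on all 6 arrays, trend and robust fitting or array weights. The latter was also called in the authors' processed values, with a replicate block and without background correction. Of 23 alternatives, 9 called the former and 10 the latter.

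In the pericentriolar material, the linker and the satellites, 4 probes were kept and 0 were called, with CEP250, which tethers the centriole pair, at 0.68 ± 0.25. CEP250 was called without scramble array 1 (0.93) and with median scaling, a replicate block or array weights. The 23 CEP probes that were not called ranged from -0.61 to 0.68. They include both probes of CEP15 (-0.21 ± 0.18 and -0.05 ± 0.12). CEP55, a midbody protein of late cytokinesis, chosen after its values were seen, read 11.33, 10.54 and 10.73 on the scramble arrays and 11.31, 10.33 and 11.25 on the mimic arrays. The groups overlapped, with scramble array 2 and mimic array 2 the lowest of their groups. The sign of its difference (0.09 ± 0.30) turned without scramble array 2 (-0.07), mimic array 1 (-0.08) or mimic array 3 (-0.05).

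The number of CEP probes called higher was 4 to 10 when 1 array was left out, with 5 without scramble array 2 or mimic array 1 and 4 without mimic array 3. Centrosome genes vary with the cell cycle, and of 15 mitosis genes measured 1 rose (BUB1B, 0.75 ± 0.21), 1 fell (MKI67, -0.98 ± 0.13) and 13 were not called. Over all 10503 genes, each represented by its brightest kept probe, 18.4% were called higher and 17.3% lower. The summed linear signal of the 15 mitosis genes was 19026 to 22110 on the scramble arrays and 17856 to 23799 on the mimic arrays. Its part in the CEP values was not tested. The call of BUB1B was lost without scramble array 2 (0.65) or 3 (0.67) or mimic array 1 (0.63) or 3 (0.70).

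Of the IFT probes 4 of 21 (19%) were called, against 33.9% of all kept probes. IFT88, a core subunit of the anterograde IFT-B complex without which cilia do not form in the mouse, was the only IFT gene with a probe called higher in the fit with all 6 arrays, and both of its kept probes were. The probe ILMN_1669366 read 6.26, 6.61 and 6.30 on the scramble arrays and 7.49, 7.35 and 7.68 on the mimic arrays. ILMN_2373755 read 5.99, 5.94 and 5.95 on the scramble arrays and 6.6, 6.74 and 6.89 on the mimic arrays. Neither overlapped between groups, the differences were 1.12 ± 0.15 and 0.78 ± 0.13, and both calls held in all alternatives run.

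A pair of IFT-B genes fell. IFT56, a tetratricopeptide subunit, read 8.0, 7.59 and 7.68 on the scramble arrays and 7.08, 6.80 and 7.13 on the mimic arrays, with every mimic array below every scramble array (-0.75 ± 0.16). IFT70A read 6.03, 5.74 and 5.66 on the scramble arrays and 4.94, 5.04 and 5.22 on the mimic arrays. No mimic array detected it, and in the values normalized here it fell at least 1.35-fold (fitted -0.74 ± 0.15). The call was lost without background correction (-0.23) and in the authors' processed values (-0.13), both smaller falls than that bound. IFT70B, a close paralog whose RNA could also bind such a probe, read 6.15, 5.64 and 5.58 on the scramble arrays and 6.16, 5.86 and 6.0 on the mimic arrays. It overlapped between groups and was not called (0.21 ± 0.18).

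The other 17 IFT probes ranged from -0.15 to 0.65, with 15 above and 2 below 0 and 6 without overlap between groups. Over all 17104 kept probes, called ones included, 8887 were above 0 and 48.8% did not overlap. In the retrograde IFT-A complex 4 probes were kept and 0 were called. IFT140 was at 0.65 ± 0.28 and IFT122 at 0.57 ± 0.25 and 0.20 ± 0.12 with its 2 kept probes, the former called with array weights (0.69). Of further IFT-B subunits, IFT80 was at 0.61 ± 0.24 (called without scramble array 1, at 0.80, and with a replicate block or array weights). IFT81, which binds tubulin cargo, was at -0.14 ± 0.17 and 0.17 ± 0.17, and IFT52 at 0.07 ± 0.13 and 0.02 ± 0.14. With median scaling 6 IFT probes were called higher, and with the authors' processed values, no background correction or trend and robust fitting 4, and with array weights 5.

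**Figure D4:**
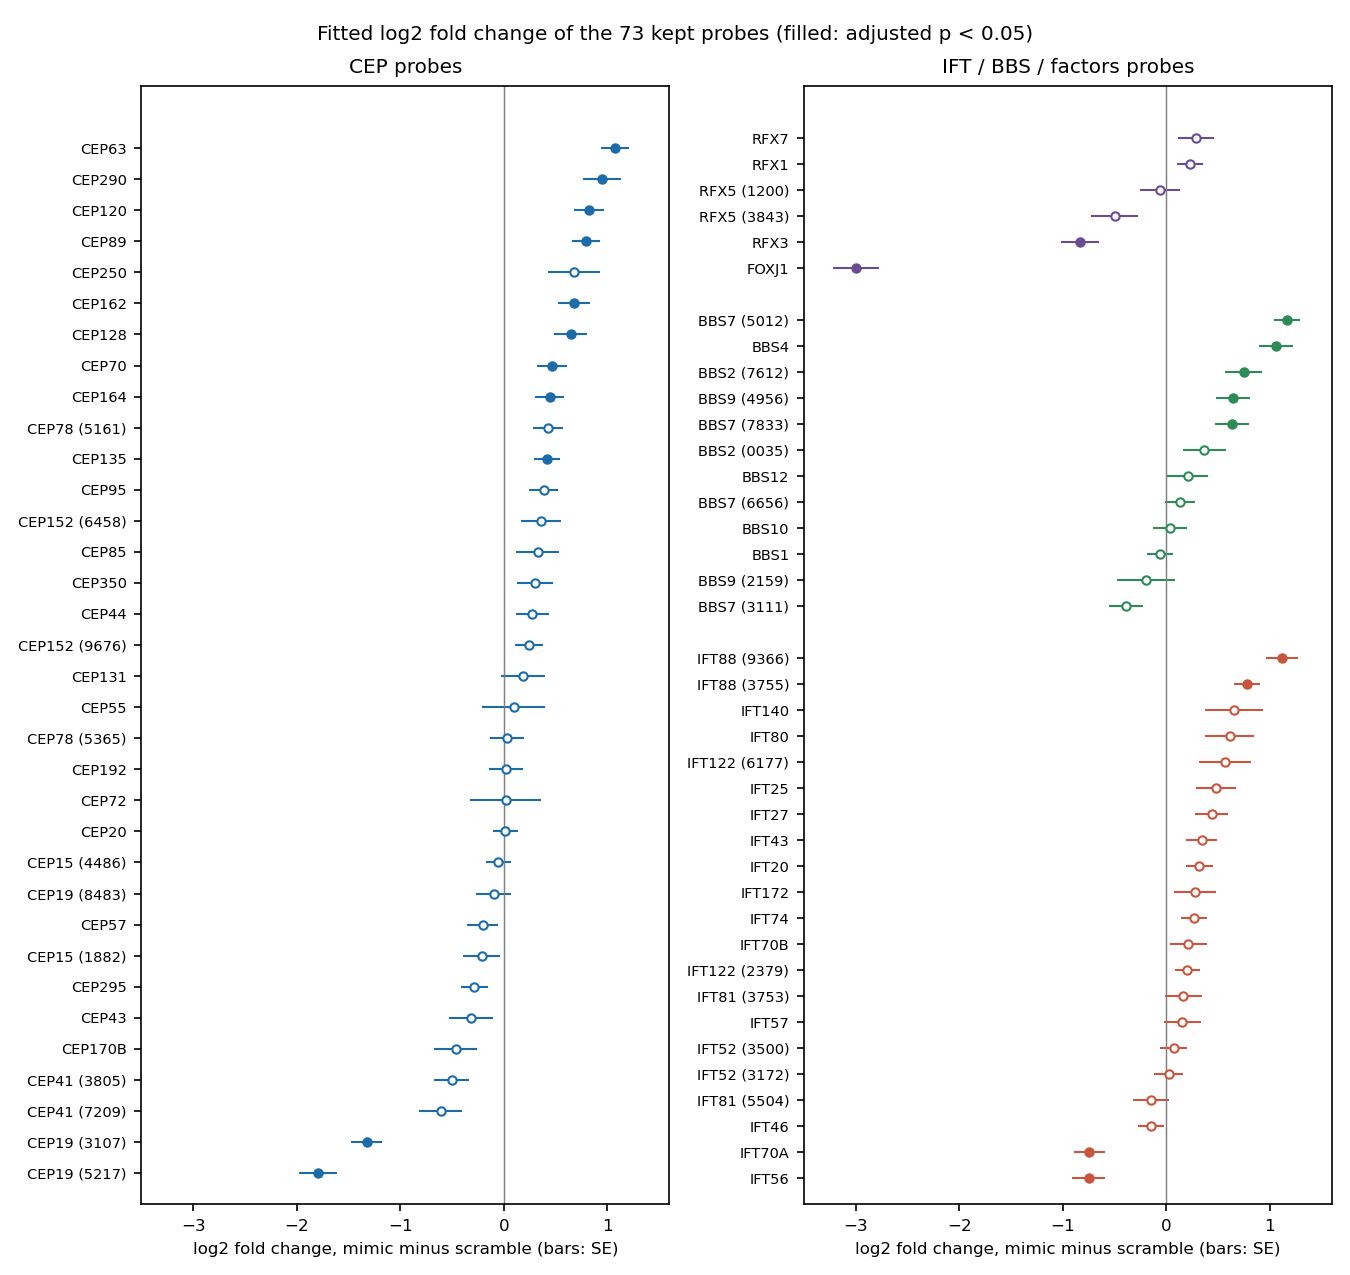
Log2 fold change, mimic minus scramble (x axis), with SE bars for the 73 kept probes, ordered within the CEP, IFT, BBS and factor groups, where filled points are called at an adjusted p below 0.05 and the last 4 digits of the identifier tell probes of 1 gene apart. CEP63, BBS4 and 1 probe each of BBS7 and IFT88 lie above 1, and FOXJ1 and 2 probes of CEP19 below -1.

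The 5 calls among BBS probes in the fit with all 6 arrays were higher. That is 41.7% of the 12 kept BBS probes called, against 33.9% of all kept probes. BBS4, the BBSome subunit that also binds the satellite protein PCM1, read 7.04, 7.52 and 7.29 on the scramble arrays and 8.16, 8.54 and 8.33 on the mimic arrays, with no overlap, and rose by 1.06 ± 0.17. BBS2, which sits with BBS7 and BBS9 in the BBSome core, rose by 0.75 ± 0.18 with the probe ILMN_1767612 (8.52, 8.90 and 8.84 on the scramble arrays and 9.49, 9.79 and 9.22 on the mimic arrays). All mimic arrays of that probe lay above all scramble arrays. Its other probe was higher in the fit but overlapped and was not called (0.37 ± 0.20).

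BBS7 had 4 kept probes that differed in direction. ILMN_1775012 read 5.69, 5.72 and 5.64 on the scramble arrays and 6.95, 6.71 and 6.89 on the mimic arrays, and ILMN_2257833 read 6.59, 6.92 and 6.38 on the scramble arrays and 7.39, 7.26 and 7.16 on the mimic arrays. Both rose without overlap (1.17 ± 0.12 and 0.64 ± 0.16), and the second call was lost without scramble array 3 (0.52) or mimic array 1 (0.58). ILMN_1776656 was at 0.14 ± 0.14 and ILMN_1703111 at -0.39 ± 0.17 and neither was called. Which transcripts the BBS7 probes read was not tested.

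BBS9 rose with the probe ILMN_1794956 (7.05, 7.43 and 7.56 on the scramble arrays and 7.89, 7.99 and 8.10 on the mimic arrays), by 0.65 ± 0.16, and that call was lost without mimic array 3 (0.59). Its second probe, detected on 2 scramble arrays and 1 mimic array, was at -0.19 ± 0.28 and turned to 0.01 without mimic array 3. BBS1 was not called, and BBS5 was detected on 2 of 6 arrays and not kept. Of the chaperonin-like genes that help to assemble the BBSome, BBS12 was at 0.21 ± 0.20 and BBS10 was also not called. The number of BBS probes called higher was 4 or 5 when 1 array was left out.

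Genes of the same machines that lack the stem names were read from lists chosen with earlier results of these data known, with each gene represented by its brightest kept probe. Over all 10503 genes, 35.7% were called, 18.4% higher and 17.3% lower. Of 10 further IFT and BBSome genes 5 rose, 0 fell and 5 were not called (median 0.50). The small BBSome subunit BBIP1 rose by 1.20 ± 0.22, the IFT-A subunit WDR19 by 1.17 ± 0.17, the BBSome subunit TTC8 by 1.06 ± 0.14 and ARL6, the GTPase that recruits the BBSome to membranes, by 0.65 ± 0.21. The ARL6 call was lost without scramble array 1 (0.64), 2 (0.55) or 3 (0.77) or mimic array 1 (0.59) or 3 (0.50), and in the authors' processed values (0.15).

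Of 12 genes of the IFT motors 6 rose, 2 fell and 4 were not called (median 0.48), and 6 rose in every fit with 1 array left out. DYNLT2B, a light chain of the retrograde dynein, rose by 1.08 ± 0.12, KIF3A, a motor subunit of the anterograde kinesin detected on 1 of 3 scramble arrays, by 1.06 ± 0.18, its accessory subunit KIFAP3 by 0.92 ± 0.17 and the dynein light intermediate chain DYNC2LI1 by 0.91 ± 0.16. The 2 that fell, named after their values were seen, were DYNLL2 (-0.59 ± 0.13) and DYNLRB1 (-0.49 ± 0.12), light chains that cytoplasmic dynein also uses. The call of DYNLRB1 was lost without scramble array 3 (-0.46) or mimic array 3 (-0.47), which left 1 fall in this list.

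**Figure D5:**
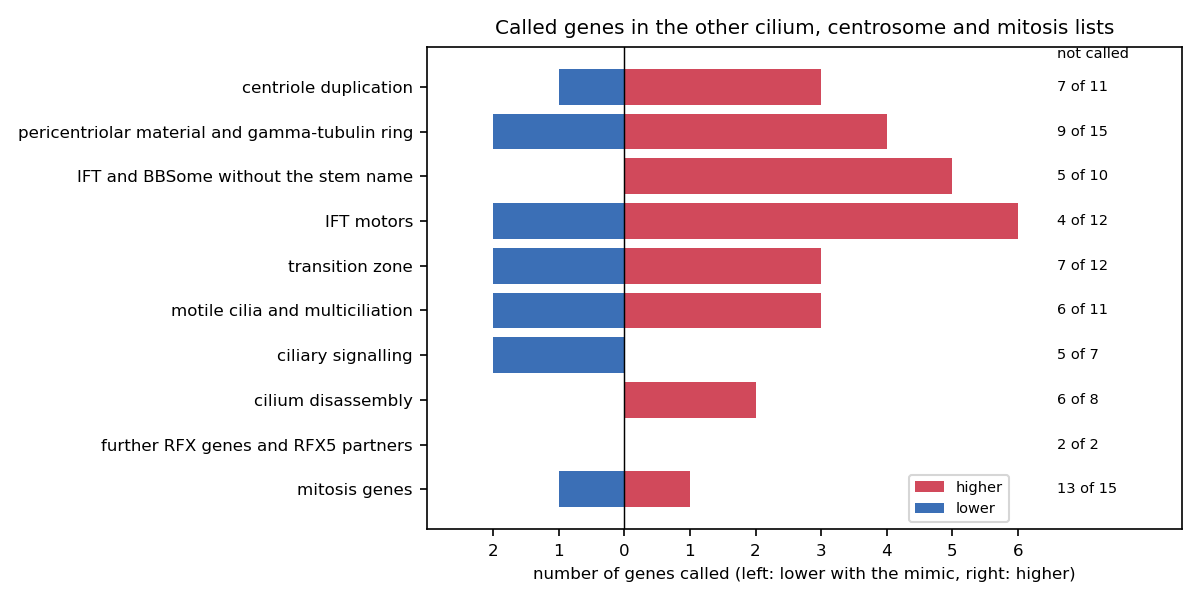
Number of genes called lower (left of 0) and higher (right of 0) with the mimic in each list of genes without the stem names, with the number not called of those measured at the right. The IFT motors have 6 higher and 2 lower of 12, and ciliary signalling 0 higher and 2 lower of 7. Over all 10503 genes 18.4% were called higher and 17.3% lower.

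In the transition zone list 3 of 12 rose, 2 fell and 7 were not called (median 0.28). TMEM67, a receptor-like membrane protein, rose by 1.67 ± 0.18. CC2D2A (0.89 ± 0.24, detected on 1 of 3 scramble arrays) and NPHP4 (0.47 ± 0.12) rose, and MKS1, also of the transition zone and detected on 1 of 3 mimic arrays, fell (-0.80 ± 0.19). These 3 calls were lost in the authors' processed values. That of CC2D2A was also lost without scramble array 1 (0.88) or 3 (0.64) or mimic array 1 (0.90) or 3 (0.88), that of NPHP4 without scramble array 2 (0.45) or 3 (0.48) or mimic array 1 (0.45) or 3 (0.41), and that of MKS1 without scramble array 3 (-0.73) or, with the full probe set, 2 (-0.77). The number that rose was 1 without scramble array 3, mimic array 1 or mimic array 3, and 6 with median scaling, and 0 fell without scramble array 3.

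Of 11 centriole duplication genes 3 rose, 1 fell and 7 were not called. CETN3, a centrin, rose by 0.65 ± 0.16, CCP110, the cap protein that blocks cilium growth, by 0.59 ± 0.14 and RTTN, a centriole protein, by 0.49 ± 0.12, whereas POC1A fell (-0.56 ± 0.16). The call of RTTN was lost without mimic array 1 (0.48) or 3 (0.43), that of CCP110, with the full probe set, without scramble array 2 (0.57) or 3 (0.58), and that of POC1A without scramble array 1 (-0.51), 2 (-0.58) or 3 (-0.58) or mimic array 1 (-0.56) or 2 (-0.42). Of 15 genes of the pericentriolar material and the gamma-tubulin ring, 4 rose, 2 fell and 9 were not called. MZT1, a small subunit of the ring, fell by 1.6 on the log2 scale (SE 0.14) and NINL, a microtubule anchor, by 0.69 (SE 0.14), while its relative NIN rose by 0.81 ± 0.14 and NEDD1, which recruits the ring, by 0.52 ± 0.15. The NEDD1 call was lost without scramble array 1 (0.56) or 2 (0.40) or mimic array 1 (0.43) or 3 (0.55). In that list 1 or 2 genes rose without any 1 array other than mimic array 2.

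Of 24 genes of motile cilia and multiciliated cells on the array, 12 were detected nowhere and 11 were measured, of which 3 rose, 2 fell and 6 were not called. DNAI1, an intermediate chain of the outer dynein arm, was detected on 0 of 3 scramble arrays and all 3 mimic arrays. It could pass the filter only by being high with the mimic, so its rise follows in part from that filter. DNAI1 rose at least 1.40-fold in the values normalized here. Its call was lost in the authors' processed values (0.15, a smaller rise than that bound), and it leaves the filter when a mimic array is left out. RSPH1, a radial spoke protein, rose by 0.99 ± 0.16. MYB, a regulator of multiciliated cells that also acts in luminal breast cancer, fell (-1.49 ± 0.12), as did CCNO, a cyclin of centriole amplification (-0.76 ± 0.21). The CCNO call was lost without scramble array 2 (-0.77) or 3 (-0.55) and without mimic array 1 (-0.73), 2 (-0.73) or 3 (-0.84). In that list 1 gene rose without mimic array 1, and 1 fell without scramble array 3 or mimic array 1 or 3.

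In ciliary signalling 0 of 7 measured genes rose and 2 fell, where 18.4% of all genes were called higher and 17.3% lower. GLI1, GLI2 and PTCH1, parts and targets of the Hedgehog pathway, were detected on no array. ARL3, a GTPase that releases lipid-modified cargo in the cilium, fell by 2.73 on the log2 scale (SE 0.20), and GLI3, the Hedgehog repressor, by 1.30 (SE 0.15). In the list labelled cilium disassembly, 2 of 8 rose and 6 were not called. The label need not hold for each gene in it, MAPRE1 included, and their part in disassembly was not tested. The scaffold NEDD9, which activates AURKA, rose by 1.09 ± 0.29 and MAPRE1, a microtubule end-binding protein, by 0.48 ± 0.12. The NEDD9 call was lost without scramble array 1 (0.90) or 3 (1.00), and that of MAPRE1 without scramble array 2 (0.44) or 3 (0.44) or mimic array 1 (0.47) or 3 (0.47). None of that list rose without scramble array 3.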

How the data were processed

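Gene expression was measured on Illumina BeadChips in 6 samples, 3 per group. Per the file headers, the deposited raw table pairs an intensity with a detection p-value per probe and array, and no header names its software. A deposited table of processed intensity comes from the authors too. The submitters' processing notes list lumi 3.2.2. The scale of the processed values is linear, and their transform and centring stay unknown.

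Background was removed by normexp from the detection p-values (offset 16; nec, limma 3.58.1, R 4.3.3), arrays were quantile-normalized and log2 was taken. Probes detected on at least 3 arrays (p below 0.01) were kept, whatever the group (17104, 36.1%). The fit used lmFit and eBayes, two-sided, with Benjamini-Hochberg adjustment over all kept probes. It was tested on simulated data. With 3 arrays a group, precision is limited, and folds near background are compressed.

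Gene symbols came from the array's platform annotation (30113 with 1 symbol, 8 with several, 17201 not listed). Current RefSeq symbols gave the same members. Named were all factor probes, called members, members with several kept probes, the 3 largest uncalled values per stem and, per list, up to 4 called genes or the 2 with the smallest p. Members and lists were chosen with earlier results of these data known. Coordinates are given only for the microRNA and the printed promoter stretches, on GRCh38.p14. Promoter and microRNA sequences are from RefSeq.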

Additional observations from a re-analysis of the deposited data

How the results depend on the processing

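The fit was repeated with the authors' processed values, median scaling, cyclic loess, an offset of 50, no background correction, 3 other filters, current RefSeq symbols, a replicate block, trend and robust, array weights and leaving out each array. Leaving out each array with the full probe set was added after seeing the data. Of the 22 member probes called, 13 kept their call in every alternative that kept the probe. A further 9 lost it in at least 1 alternative, and 0 changed sign. Among the 13, FOXJ1 was kept in 19 alternatives and each falling CEP19 probe in 22, where most named probes had 23. Of 32 called genes named from the other lists, 18 kept theirs in the same sense and 14 lost it in at least 1. Of the 18, KIF3A was kept in 22 alternatives. Probes called higher over the array ranged from 1790 to 2780 and lower from 1910 to 2758 without 1 array, and members from 10 to 17 and 3 to 8. Probes detected only with the scramble (FOXJ1, RFX3, IFT70A) leave the filter without a scramble array. With the full probe set the counts ran from 1944 to 2847 and 1994 to 2726 over the array and 10 to 17 and 6 to 8 in members.

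Members called lower numbered 3 with detection on all 6 arrays. They were IFT56 and both CEP41 probes, and the CEP41 probes were not called in the main fit. FOXJ1, RFX3, IFT70A and the falling CEP19 probes were not kept under that filter. The IFT median was 0.16 without background correction, 0.19 with an offset of 50, 0.11 in the authors' values, 0.16 without a filter and 0.21 with detection on all 6 arrays. The BBS median was 0.14 in the authors' values and 0.50 with detection on all 6 arrays, the CEP median 0.028 without a filter. The factor median rests on few probes, 6 in the main fit. It was -0.0213 without a filter (14 probes), 0.228 with detection on all 6 arrays (3 probes) and 0.0166 with detection p below 0.05. Without 1 array the medians ran from 0.11 to 0.35 (CEP), 0.23 to 0.29 (IFT), 0.20 to 0.50 (BBS) and -0.47 to 0.18 (factors), and with the full probe set 0.11 to 0.35, 0.18 to 0.29, 0.20 to 0.41 and -0.47 to -0.17. The cause was not tested.

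Sign changes fell on uncalled probes near 0. With median scaling the CEP15 probe ILMN_2224486 was at 0.0709 and the RFX5 probe ILMN_1741200 at 0.00333, and with cyclic loess the CEP78 probe ILMN_3265365 was at -0.00404 and the IFT52 probe ILMN_1673172 at -0.0171. Without 1 array, the values ran for CEP55 ILMN_1747016 from -0.0793 to 0.413, for CEP78 ILMN_3265365 from -0.0582 to 0.18, for IFT81 ILMN_1743753 from -0.00275 to 0.318, for IFT52 ILMN_1673172 from -0.0804 to 0.126, for RFX5 ILMN_1741200 from -0.232 to 0.0747, for BBS9 ILMN_2352159 from -0.385 to 0.0138 (-0.428 to 0.0465 with the full probe set) and for CEP19 ILMN_2288483 from -0.195 to 0.0756.

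The replicate numbers are shared between the groups. Same-numbered arrays deviated together in 2 pairs only (r = 0.356, 0.45 and -0.107), and 4 of 6 arrays matched best with their own number. Whether the numbers pair the samples is not settled by these values, and the main fit did not use the numbers. With the replicate block, 22 members were called higher and 9 lower, and 3441 and 3243 over the array. IFT140 (0.65), IFT122 (0.57) and the BBS7 probe ILMN_1703111 (-0.39) were called there, with 6 IFT probes higher and 1 BBS probe lower.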
